A study of Mus musculus with 12 samples.

Results

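The genes described here encode the pore-forming and auxiliary subunits of sodium, calcium and potassium channels in the newborn mouse prefrontal cortex. They were chosen by name alone, as every gene of the cell table whose symbol begins with Kcn or Cacn, or with Scn and a digit. This gave 124 of 18879 genes, of which 11 belonged to sodium channels, 25 to calcium channels and 84 to potassium channels, and 4 were noncoding transcripts named after a channel gene (Kcnq1ot1, Kcnmb4os2, Kcnd3os and Kcnab3os). A few members are no channel subunits in the strict sense, since the Cacng group holds the TARPs, which escort AMPA-type glutamate receptors, and Kcnrg encodes a regulator of potassium channels.

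Single cell RNA sequencing was performed on prefrontal cortex at postnatal day 0, from mice labelled as C57BL/6J, whereas the methods of the study name C57BL/6N for the edited zygotes and the first breeding. WT mice carried 2 intact copies of Myt1l, HET mice had a germline deletion of 7 bp in exon 6 of 1 copy, and HOM mice had it in both, which places a stop at residue 78 and, as the study describes, leaves HOM animals dying after birth. MYT1L is a zinc finger transcription factor of neurons, and the question of the comparison was which genes and cell types depend on it. Each genotype was 1 droplet library of 2 pooled animals, read in 4 sequencing runs, so the values below have no replicate error and no test, and a difference between genotypes cannot be told apart from a difference between libraries. In dissociated, methanol-fixed cells, fewer transcripts of a gene per cell and a different mix of cells within a type cannot be told apart either.

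Voltage-gated sodium channels open the action potential, voltage-gated calcium channels couple it to transmitter release and gene expression, and potassium channels end it and hold the resting potential. Each channel is built from a pore subunit (α in sodium channels, α1 in calcium channels) and auxiliary subunits that set its traffic and gating. Around birth, cortical neurons are gaining these currents, while astrocytes build the potassium conductances that later clear the ion from the extracellular space.

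The libraries held 10503 WT, 12072 HET and 13688 HOM cells with a median of 1045, 1099 and 1330 molecules. A figure legend of the study attaches the same cell numbers to the genotypes in another order than the cell table does. WT, HET and HOM below mean the libraries so labelled in the cell table, and if the labels were exchanged, every difference between genotypes given here would change its meaning. The deposited expression values were depth-corrected whole numbers that summed to 825 to 1952 per cell. A level is given here as CPM, the summed value of a gene in a cell type and library per 1000000 of the values of all genes. The Myt1l transcript itself is not removed by the deletion and averaged 479, 630 and 1038 CPM over the layer neurons of WT, HET and HOM, so that it does not check the labels. The libraries differed in the sex of their cells, since 603 WT, 1865 HET and 2086 HOM cells held a Y-linked transcript. By contrast, 2121 WT cells held Xist, the transcript of the inactive X chromosome in female cells, against 2 in HET and 1 in HOM. Cells with a sign of female sex were thus nearly confined to WT. Comparisons of a mutant with WT over all cells therefore cannot tell genotype apart from sex. Between 199 and 240 cell barcodes were shared by any pair of libraries. Of 21 labelled cell types, 18 reached 100 cells per library. Their own marker genes led in each of these except Int2 [14-P], where markers of layer I neurons led, and Endothelial2 [21-P], where markers of pericytes and mural cells led. LayerI [19-P], SVZ2 and Choroid plexus were smaller and enter no comparison. A list of meningeal markers summed to 2.916 CPM in WT and 219.1 CPM in HOM layer neurons, of which Ptgds made 2.05 and 213 CPM, and its part in the values below was not tested.

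The study gives AAAGTT as the core of the sequence that MYT1L binds. The promoters of 3 members are therefore shown before their levels. The letters AAAGTT, or AACTTT on the other strand, were sought in the 250 bases before each RefSeq start site on GRCm38.p6. Of 32851 such windows of all genes, 12.4% held them. The 89 members with an entry had 125 windows, and 8 of these (6.4%) held the letters, 1 window each in Kcnk2, Cacnb2, Kcnab1, Kcnd3os, Kcnj8, Kcnj16, Kcnj4 and Kcne2. Kcnma1 is shown because it was the lowest member in HOM GABAergic neurons, Kcnj8 because it was the most tied to 1 cell type among members with a summed value of at least 50, and Kcnk2 as a member led by WT astrocytes whose window held the letters. Each run reads 5′ to 3′ along the gene, with the motif letters in capitals.
Kcnma1 promoter: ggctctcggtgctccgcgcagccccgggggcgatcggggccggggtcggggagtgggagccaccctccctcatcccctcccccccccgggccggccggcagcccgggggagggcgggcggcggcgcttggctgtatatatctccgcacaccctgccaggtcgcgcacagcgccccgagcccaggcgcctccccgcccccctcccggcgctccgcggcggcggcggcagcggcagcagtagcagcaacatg
Kcnk2 promoter: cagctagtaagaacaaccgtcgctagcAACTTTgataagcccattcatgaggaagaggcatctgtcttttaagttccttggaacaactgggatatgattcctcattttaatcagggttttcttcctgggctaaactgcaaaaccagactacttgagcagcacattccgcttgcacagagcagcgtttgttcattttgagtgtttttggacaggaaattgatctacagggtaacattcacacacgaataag
Kcnj8 promoter: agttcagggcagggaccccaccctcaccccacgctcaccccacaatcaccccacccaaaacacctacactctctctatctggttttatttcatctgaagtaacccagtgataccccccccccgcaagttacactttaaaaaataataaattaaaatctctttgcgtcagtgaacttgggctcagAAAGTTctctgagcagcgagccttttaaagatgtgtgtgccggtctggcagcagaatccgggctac

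The Kcnma1 window lies at chr14:24004206-24004455, that of Kcnk2 at chr1:189402274-189402523 and that of Kcnj8 at chr6:142571615-142571864, all 3 on the minus strand. In the gene annotation used for positions, Kcnma1 runs from 23289431 to 24014491 on chromosome 14. Its window, set by the RefSeq start site, thus lies inside the annotated gene, and the bases before the annotated end were not searched. The Kcnma1 window did not hold the motif letters, and the Kcnk2 and Kcnj8 windows held them 1 time each. Kcnk2 has 4 windows in the table, of which the first is shown, and only 1 of the 4 held the letters. Such a match is a description of the letters and no evidence of binding.

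The channel genes differed in the cell type of their highest WT level. Of the 96 members with a summed value of at least 50 over the 3 libraries, 69 had their highest WT level in a layer or GABAergic neuron type and 27 in a progenitor, glial or vascular type. The share among all genes is not given here, and 4 layer and 6 GABAergic types were among the 18 types read. Some leads were narrow, such as Kcnb2 at 17.4 CPM in Striatal inh2 [7-P] and 17.3 CPM in SVZ1 (migrating) [2-P]. Summed by ion, the sodium channel genes reached 646.7 CPM in WT LayerV-VI [18-P] and 42.83 CPM in Ganglionic eminences [9-P]. Calcium channel genes ranged from 231.5 CPM in Endothelial1 [17-P] to 1109 CPM in Striatal inh2 [7-P]. Potassium channel genes were not led by neurons, with 1201 CPM in Astrocytes (immature) 1 [10-P] beside 1213 CPM in LayerV-VI [18-P], and 1879 CPM in Endothelial2 [21-P], where Kcnj8 supplied most of the sum.

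**Figure D1:**
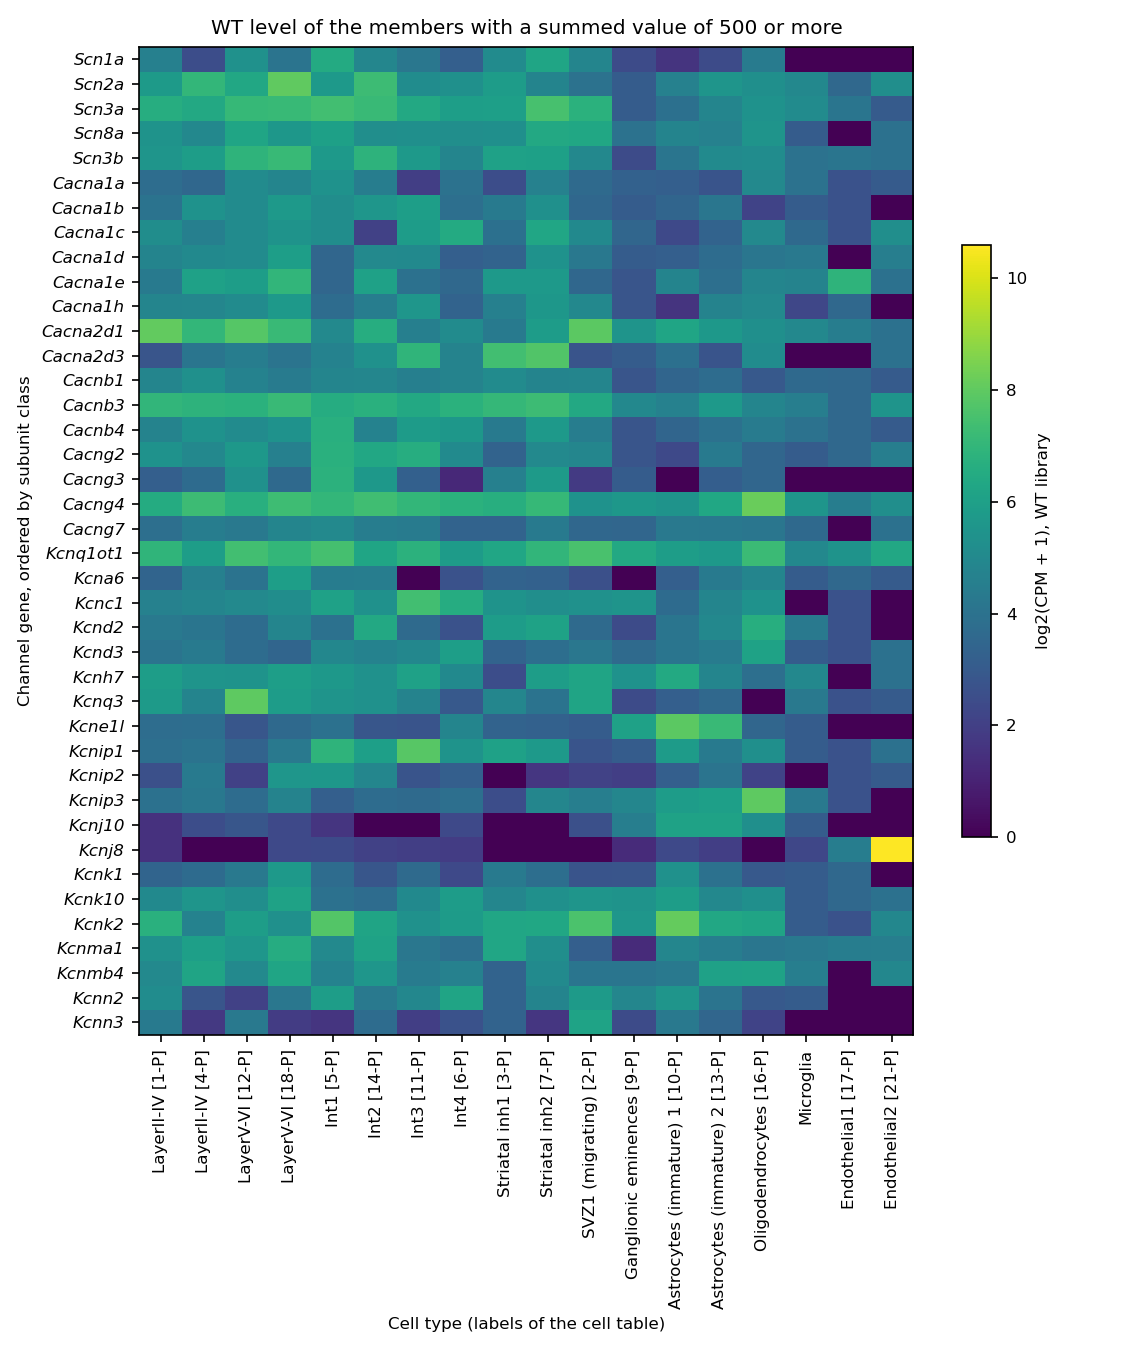
WT level of 40 of the 43 members whose summed value over the libraries was 500 or more, by cell type. Colour gives log2(CPM + 1), rows are genes ordered by subunit class and columns are the 18 cell types that reached 100 cells per library. Kcnj8 in Endothelial2 [21-P], at 1548 CPM, is the brightest cell, and Cacnb3 spans the 10 layer II-VI and GABAergic types at 83.5 to 155 CPM.

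Among the sodium channel α subunits, Scn1a, Scn2a, Scn3a and Scn9a lie in a row on chromosome 2 and Scn8a lies on chromosome 15. Scn2a encodes Nav1.2, the main sodium channel of young excitatory axons, and was highest in LayerV-VI [18-P] with 257 CPM in WT, 215 CPM in HET and 191 CPM in HOM. It was above 0 in 20.7% of these WT cells (exact Clopper-Pearson 95% interval 18.5% to 22.9%), 18% of HET cells (16.1% to 19.9%) and 17.5% of HOM cells (15.6% to 19.5%), so that the intervals overlap. In microglia, which should lack the gene, 2.83% of WT cells were above 0, at a median of 741 molecules per cell against 803.5 in LayerV-VI [18-P]. Intervals of this kind cover counting error only.

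Scn3a encodes Nav1.3, the embryonic and neonatal isoform. Its WT level was 183 CPM in Striatal inh2 [7-P], 168 CPM in Int1 [5-P] and 141 CPM in LayerV-VI [18-P]. In LayerV-VI [18-P] the HET and HOM levels were 74.5 and 78.0 CPM, both below WT, whereas in LayerV-VI [12-P] the order was reversed, with 138 CPM in WT, 161 CPM in HET and 234 CPM in HOM. The 2 deep-layer types of the same libraries therefore differed in sign for this gene, and the difference was not tested. Scn1a, the Nav1.1 gene best known from inhibitory neurons and Dravet syndrome, was at 87.0, 78.5 and 85.3 CPM in Int1 [5-P] of WT, HET and HOM, and at 74.1, 97.0 and 104 CPM in Striatal inh2 [7-P].

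Scn8a, which encodes the Nav1.6 channel of the mature axon initial segment, was at 78.9 CPM in SVZ1 (migrating) [2-P] of WT, 51.4 CPM in HET and 27.5 CPM in HOM. WT was highest in this type. The share of cells above 0 was 9.3% (7.55% to 11.3%) in WT and 3.54% (2.36% to 5.07%) in HOM. These counting intervals do not overlap. In HOM SVZ1 (migrating) [2-P], 7 of 21 measured members and 18% of 6206 measured genes were lower by the threshold defined below. Scn3b, an auxiliary β subunit, was at 139, 114 and 163 CPM in LayerV-VI [18-P] of WT, HET and HOM. Scn9a was led by Striatal inh1 [3-P], where WT, HET and HOM had 47.4, 43.2 and 38.9 CPM. Scn7a and Scn11a, a sodium-sensing channel and a channel of sensory neurons, had summed values of 5 and 7 over all libraries.

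**Figure D2:**
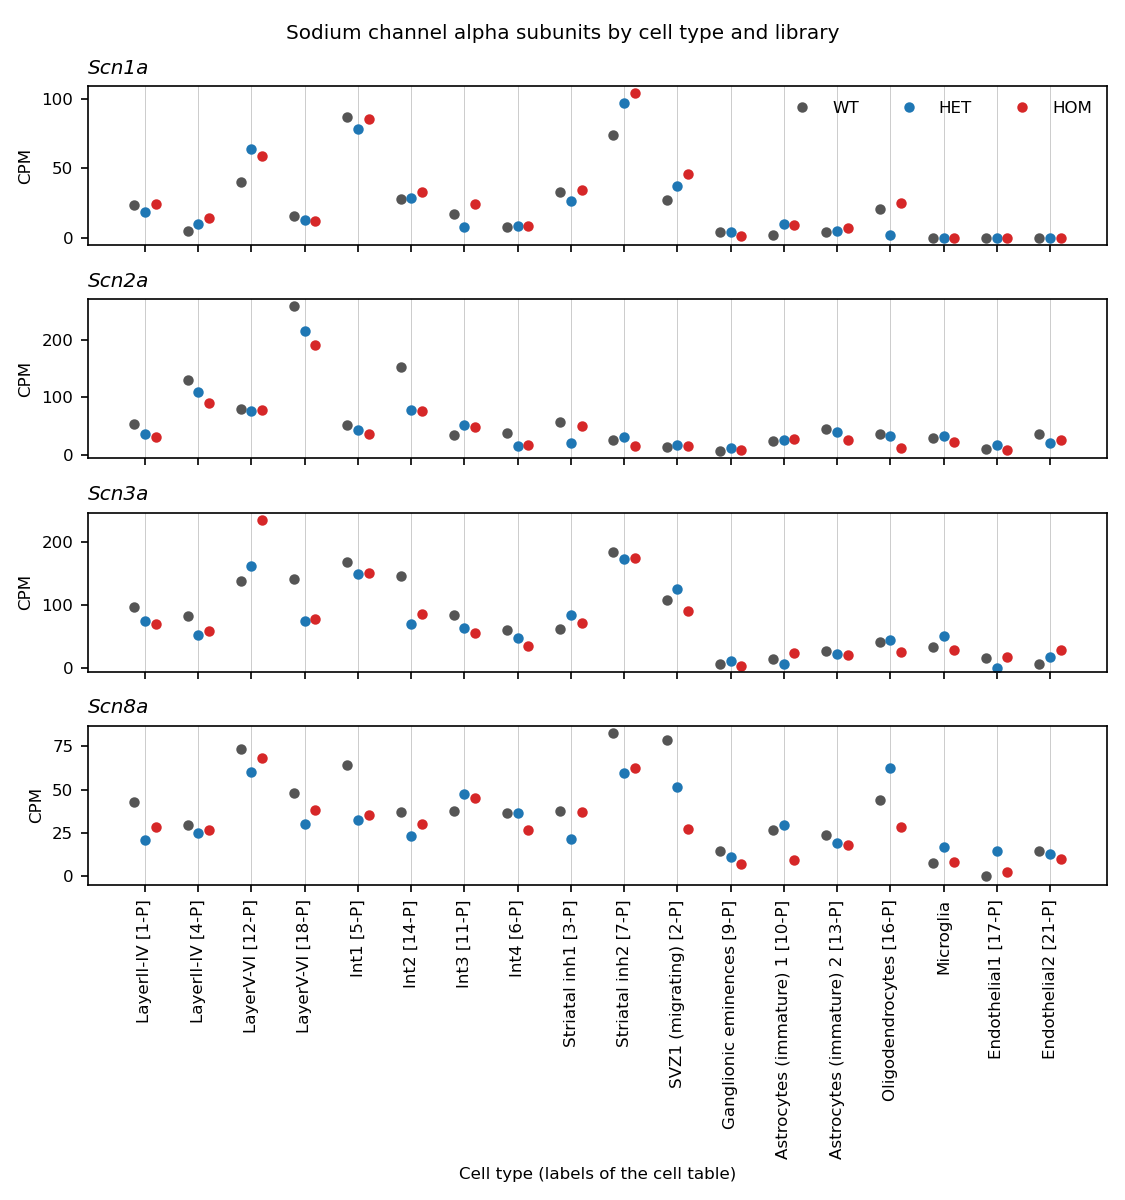
Level of 4 sodium channel α subunits in CPM, by cell type and library. Each point is 1 library (WT grey, HET blue, HOM red), with no replicate error, and the vertical axis of each panel is linear and holds 0. Scn2a peaks in LayerV-VI [18-P] in all 3 libraries, and Scn3a lies above WT in HET and HOM of LayerV-VI [12-P] but below WT in LayerV-VI [18-P].

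Calcium channel pores were spread over the neuron types. Cacna1e, which encodes the R-type Cav2.3 channel, was at 125 CPM in LayerV-VI [18-P] of WT, 94.2 CPM in HET and 123 CPM in HOM. The same gene reached 118 CPM in WT Endothelial1 [17-P], where HET had 32.5 CPM and HOM 39.7 CPM. There 12.1% of WT cells (7.32% to 18.4%), 3.98% of HET cells (1.84% to 7.42%) and 4.43% of HOM cells (2.44% to 7.32%) were above 0, so that the WT interval barely met those of the mutants. Cacna1c, the L-type Cav1.2 gene, was highest in Int4 [6-P], where it was at 88.3, 78.4 and 22.0 CPM in WT, HET and HOM, and 9.82% (7.58% to 12.5%), 9.43% (6.96% to 12.4%) and 2.28% (1.05% to 4.28%) of cells were above 0. HOM was low there, with an interval below those of WT and HET. In HOM Int4 [6-P], 7 of 10 measured members and 23.8% of 4212 measured genes were lower by the threshold defined below. The HOM cells there were also the shallowest, with a median of 1196, 1527 and 913 molecules in WT, HET and HOM. The part of depth in the Cacna1c value was not tested.

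The auxiliary calcium channel subunits had different leading cell types. Cacna2d1, an α2δ subunit and the gabapentin target, was highest in LayerII-IV [1-P] with 267 CPM in WT, 262 CPM in HET and 184 CPM in HOM, and it was also strong in SVZ1 (migrating) [2-P] with 241, 250 and 207 CPM. Its paralogue Cacna2d3 marked the striatal types instead, at 209, 223 and 275 CPM in Striatal inh2 [7-P]. Cacna2d2 was led by Int2 [14-P], the type whose layer I markers led, with 86.6 CPM in WT, 40.3 CPM in HET and 34.6 CPM in HOM. Cacnb3, a β subunit, lay between 83.5 and 155 CPM in the 10 layer II-VI and GABAergic types of WT.

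Of the TARPs, Cacng3 was centred on Int1 [5-P], with 112 CPM in WT, 147 CPM in HET and 156 CPM in HOM, and so was Cacng2, the stargazin gene, with 104, 130 and 123 CPM. Cacng4 peaked in Oligodendrocytes [16-P] at 290, 217 and 246 CPM. Cacng5 was at 20.7, 15.4 and 10.4 CPM in Ganglionic eminences [9-P] and at 19, 25 and 11 CPM in Int4 [6-P]. These peaks were in the same cell type in every library for Cacng2, Cacng3 and Cacng4.

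Several potassium channel genes were tied to a single cell type. Kcnj8 encodes Kir6.1, the pore of the ATP-sensitive channel of pericytes and vascular muscle, and was at 1548 CPM in WT Endothelial2 [21-P], 1799 CPM in HET and 1328 CPM in HOM. The next WT type, Endothelial1 [17-P], had 21.5 CPM, which makes the ratio 71.9. The share of Endothelial2 [21-P] cells above 0 was 63.2% (53.6% to 72%) in WT, 56.7% (49.6% to 63.7%) in HET and 44.6% (38.5% to 50.9%) in HOM, against 0.444% of WT LayerV-VI [18-P] cells. The median depth was 1099 molecules per cell in Endothelial2 [21-P] and 803.5 in LayerV-VI [18-P]. The WT and HOM shares do not overlap within counting error, although HOM cells had a similar depth of 1004.5 molecules. By the threshold defined below, 17.3% of 1518 measured genes were lower in HOM Endothelial2 [21-P]. The level of Kcnj8 there, at a log2 ratio of -0.22, did not pass it.

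Endothelial1 [17-P] was the leading type of Kcna5 (Kv1.5), at 108 CPM in WT, 61.3 CPM in HET and 89.3 CPM in HOM, and of Kcnj2 (Kir2.1, a strong inward rectifier of vessels), at 86.1, 61.3 and 42.2 CPM. The ratios to the next WT type were 37.4 and 13.2. Kcnk13, which encodes the THIK-1 channel of microglia, was led by Microglia at 14.9, 47.0 and 23.8 CPM, a low level resting on few cells.

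Astrocytes led for several further members. Kcnj10 encodes Kir4.1, the potassium-buffering channel of astrocytes, and was at 68.2, 65.9 and 47.9 CPM in Astrocytes (immature) 2 [13-P] of WT, HET and HOM and at 66.9, 42.4 and 28.8 CPM in Astrocytes (immature) 1 [10-P]. HOM was lowest in both, but Astrocytes (immature) 1 [10-P] held only 181 HOM cells, at a median of 1106 molecules against 1900 in WT. Kcne1l, an X-linked gene of the MinK family of accessory subunits, was at 239, 241 and 216 CPM in Astrocytes (immature) 1 [10-P], and Kcnk2, which encodes the mechanosensitive leak channel TREK-1, was at 270, 241 and 297 CPM there. Kcnk2 was no astrocyte gene alone, since Int1 [5-P] had 218 CPM and SVZ1 (migrating) [2-P] 191 CPM in WT.

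Oligodendrocytes [16-P] led for Kcnip3, a calcium-binding partner of Kv4 channels also known as DREAM, at 252, 171 and 222 CPM, and for the Kv4.2 gene Kcnd2, at 98.9, 84.4 and 77.1 CPM. SVZ1 (migrating) [2-P] led for Kcnn3, a small-conductance calcium-activated channel, at 70.7, 43.1 and 77.7 CPM. Here HET alone was low.

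In the interneurons the Kv3 family, whose fast channels serve rapid firing, was divided by type. Kcnc1 (Kv3.1) was led by Int3 [11-P] with 167 CPM in WT, 127 CPM in HET and 128 CPM in HOM. Kcnc2 (Kv3.2) was led by Int1 [5-P] with 87.0, 78.5 and 78.6 CPM, and the silent subunit gene Kcns3 shared this type at 35.2, 42.9 and 27.8 CPM. Kcnip1, another Kv4 partner, was at 227, 278 and 231 CPM in Int3 [11-P].

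The Kv7 gene Kcnq3, a subunit of the M-current that damps repetitive firing, was at 252 CPM in LayerV-VI [12-P] of WT, 191 CPM in HET and 132 CPM in HOM, and 3.53 times lower in the next WT type. The share of cells above 0 was 24.2% (19.2% to 29.7%), 21% (17.2% to 25.1%) and 15.7% (12.7% to 19.2%), so that the WT and HOM intervals meet only at their ends. These cells were deeper in the mutants, with a median of 1685, 2812 and 3475.5 molecules in WT, HET and HOM. In the other deep-layer type, LayerV-VI [18-P], Kcnq3 went the other way, with 56.2, 64.1 and 73.8 CPM. The BK channel gene Kcnma1 was led by LayerV-VI [18-P] with 93.0, 76.7 and 64.3 CPM.

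**Figure D3:**
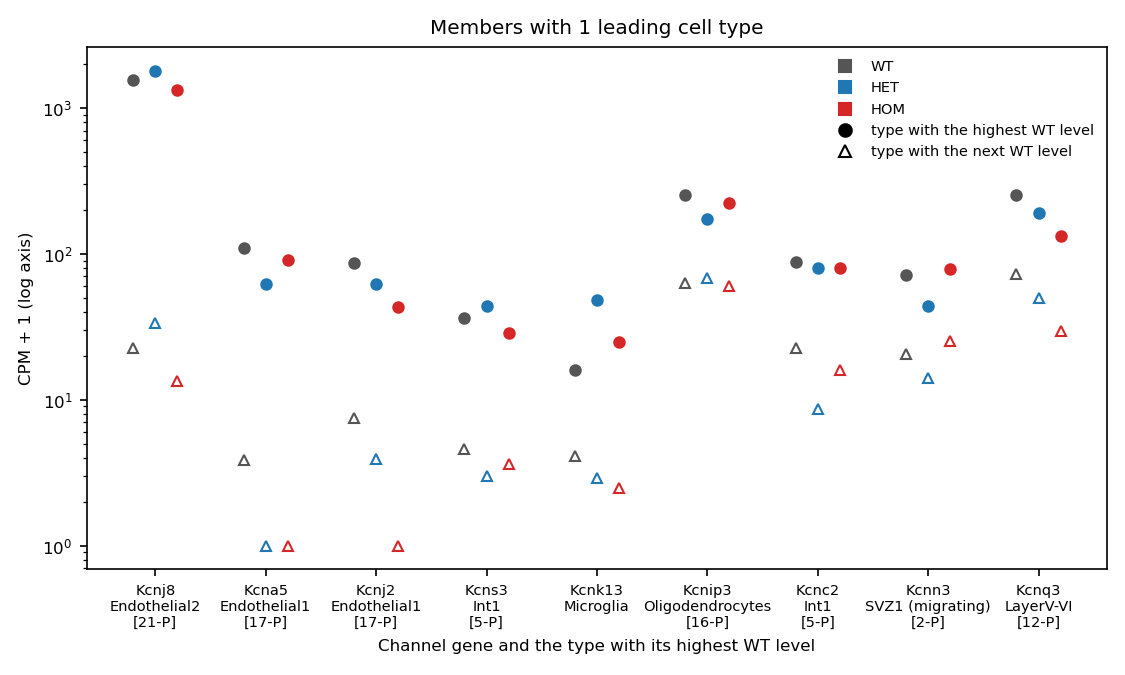
Level of 9 members with 1 leading cell type, as CPM + 1 on a log axis. Filled circles give the type with the highest WT level, named under each gene, and open triangles the type that came next in WT, for WT (grey), HET (blue) and HOM (red). Kcnj8 is highest, at 1548, 1799 and 1328 CPM in Endothelial2 [21-P] of WT, HET and HOM.

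These leading types were partly stable over the libraries. Of the 43 members with a summed value of at least 500, 29 had the same leading type in WT and HET, 25 in WT and HOM, and 23 in all 3. The corresponding shares among all genes are not given here.

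The genotypes were then compared within 3 pools of cell types, the 4 layer II-VI types, the 6 GABAergic types (Int1 to Int4 and both striatal types) and 5 progenitor and glial types. The ratio is log2 of the mean CPM + 1 of the mutant over that of WT, with each type weighted equally, for genes with a summed value of at least 50 in the pool. A gene is called higher or lower when this ratio passes 0.5 in either direction. HET and HOM were set against the same WT library, so that anything particular to that library enters both.

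In HET layer II-VI neurons the channel genes lay mostly below WT. Of 70 measured members, 19 were lower (27.1%) and 1 was higher (1.43%), against 10.1% lower and 4.12% higher of 10442 measured genes. Their median log2 ratio was -0.33, beside -0.06 for all genes, -0.13 for genes of the same transcript length class (each class holding 25% of genes), with 13.4% lower among genes of a similar summed value. By ion, 12 of 41 potassium, 7 of 20 calcium and 0 of 7 sodium channel genes were lower. The share hung on members of low level, since it was 10% of 30 members (7.02% of all genes) at a minimum summed value of 200 and 2.86% (2.93%) with a pseudocount of 10 CPM, while in cells with at least 2000 molecules it was 46.2% of 39 members (17.8%).

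Several classes lay below WT as a whole, among them the calcium channel pores, the Kv β genes and all 5 measured Kv1 genes (median -0.45), where 57.2% of all genes were below WT. All 8 measured Cacna1 genes were below WT in HET layer neurons, with a median log2 ratio of -0.59, and 5 of them were lower by the threshold. Cacna1e, below WT in each of the 4 layer types, averaged 67.5 CPM in WT against 39.6 CPM in HET, a log2 ratio of -0.75. The N-type gene Cacna1b, which serves transmitter release, averaged 36.0 against 22.5 CPM (-0.65), and the L-type gene Cacna1d 38.2 against 23.5 CPM (-0.68). In HOM the 7 measured pore genes were also all below WT, with a median of -0.43 and 3 past the threshold, namely Cacna1b at -0.77, the T-type gene Cacna1g at -0.65 and Cacna1c at -0.62. Cacna1b was at 52.9, 31.8 and 17.9 CPM in LayerV-VI [18-P] and at 41.6, 18.9 and 17.2 CPM in LayerII-IV [4-P] of WT, HET and HOM. In LayerII-IV [1-P] it was nearly level, at 15.5, 15.6 and 14.5 CPM. Pore genes are long, and the class of the longest 25% of transcripts, which held 35 of the members measured in HET layer neurons, had 17.1% of its genes lower in HET and 26.2% in HOM. The part of transcript length in these values was not tested.

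Other potassium channel genes lower in HET layer neurons included Kcna3 (Kv1.3, -0.76), Kcnv1, a silent subunit that modifies Kv2 channels (-0.74), and Kcnip4 (-0.73). Kcnip4 averaged 22.0 CPM in WT, 12.9 CPM in HET and 12.1 CPM in HOM, so that both mutants were low. Kcna3 was low in HET alone, with 13.4, 7.52 and 15.5 CPM. The TARP gene Cacng7 had the lowest ratio, -0.78, with 20.3 CPM in WT, 11.4 CPM in HET and 20.4 CPM in HOM. All 3 Kv β genes (Kcnab) were below WT in HET with a median of -0.61 and in HOM with a median of -0.41.

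None of the 7 measured sodium channel genes passed the threshold in layer neurons, and their median was -0.25 in HET and -0.06 in HOM. Scn2a averaged 130 CPM in WT, 109 CPM in HET (-0.25) and 97.9 CPM in HOM (-0.41), and was below WT in 4 of 4 types in both. Scn8a averaged 48.7, 34.2 and 40.3 CPM and just missed the threshold in HET at -0.50. Scn1a was above WT in both pooled means, with 21.1, 26.4 and 27.6 CPM and ratios of 0.31 and 0.37. In LayerII-IV [1-P], however, Scn1a was at 23.8, 18.6 and 24.2 CPM, below WT in HET and near WT in HOM. It stood among the 4 highest members in HET beside Cacng3, Kcnj3, a GIRK channel gene (0.43), and Kcnip1 (0.39). Summed by ion over the layer neurons, sodium channel genes were at 428.6, 352 and 389.1 CPM in WT, HET and HOM, calcium channel genes at 872, 748.8 and 822.1 CPM and potassium channel genes at 971.6, 828.9 and 885.7 CPM. HET was thus the lowest library for each ion.

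HOM layer neurons had members on both sides. Of 72 measured members 15 were lower (20.8%) and 8 higher (11.1%), against 16% and 6.7% of 10368 genes, and 20.5% of genes of similar summed value were lower, so the share of lower members was near the background. With a pseudocount of 10 CPM it was 8.33% (6.52% of all genes). The median was -0.18 for members and -0.10 for all genes. Among the lowest were Kcnip4 (-0.81) and Cacna1b (-0.77). All 3 measured Kv7 genes were below WT in HOM, among them Kcnq3 at -0.64, although it was above WT in LayerV-VI [18-P], and Kcnq5 at -0.58.

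**Figure D4:**
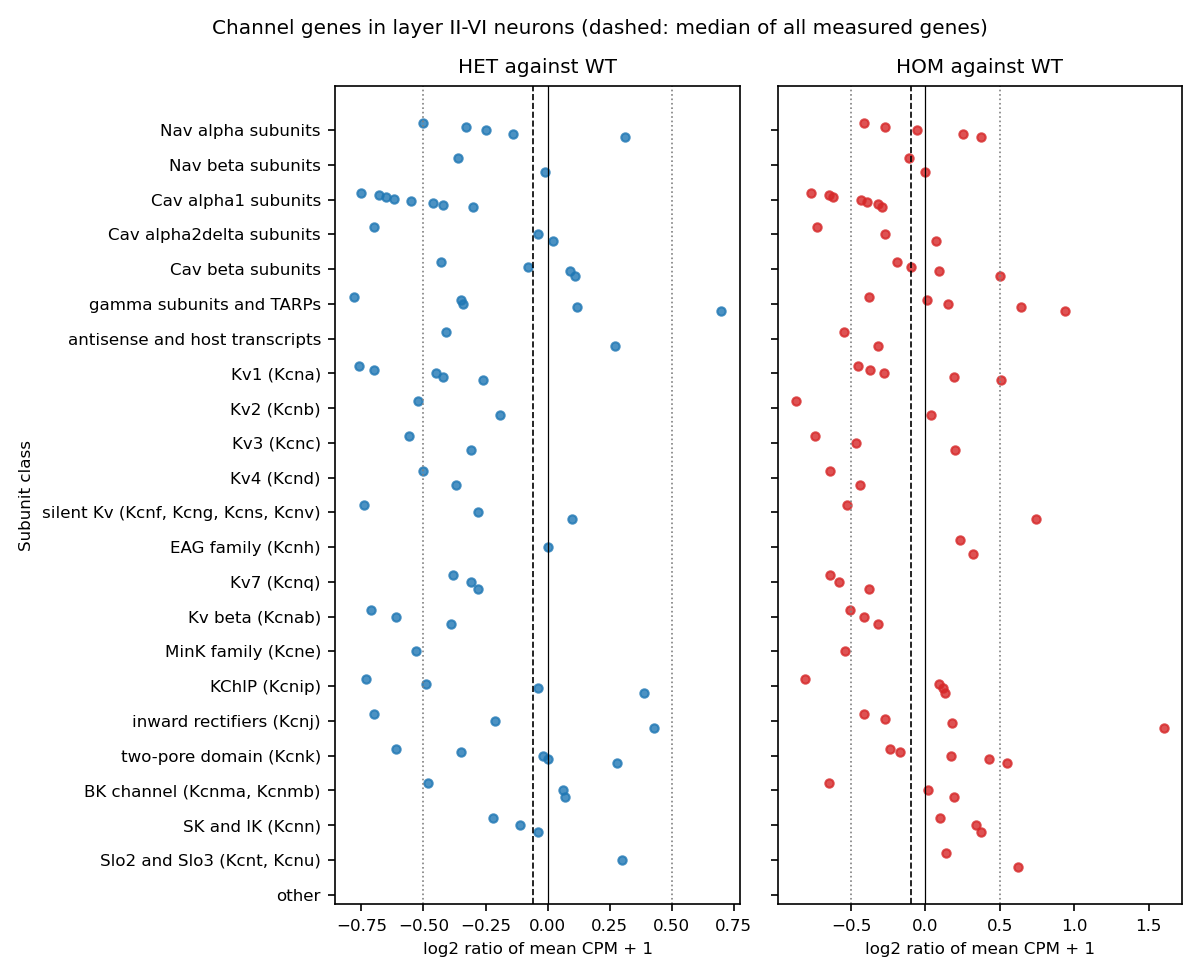
Log2 ratio of mean CPM + 1 against WT in layer II-VI neurons for each measured member, by subunit class, in HET (left) and HOM (right). Each point is 1 gene, the dashed line is the median of all measured genes (-0.06 and -0.10), dotted lines mark the threshold of 0.5 and there is no replicate error. The calcium channel pores lie left of 0 in both panels, and Kcnj8 is the far point at 1.60 in HOM.

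Cacng3 was the member higher in both neuron pools of both mutants. It encodes TARP γ-3, which assists AMPA receptors at synapses. Over the layer types it averaged 17.9 CPM in WT, 29.6 CPM in HET (0.70) and 35.3 CPM in HOM (0.94), and it was above WT in 4 of 4 types in each. In LayerV-VI [12-P] the levels were 40.0, 62.3 and 83.5 CPM, and 4.03% (2.03% to 7.1%), 6.61% (4.47% to 9.35%) and 10.2% (7.74% to 13.2%) of cells were above 0. The median depth of these cells rose in the same order, at 1685, 2812 and 3475.5 molecules, and its part in the shares was not tested. Over the GABAergic types Cacng3 averaged 41.6, 67.7 and 64.2 CPM (0.69 and 0.62) and was above WT in 6 of 6 types in each. Because its leading type was an interneuron, interneuron markers were read beside it in the layer neurons. Of 13 listed markers 11 were measured there, 6 were above WT in HET and 2 in HOM, and the summed level was 574.6, 594.6 and 990.7 CPM in WT, HET and HOM. Npy made up the HOM excess, with 348, 373 and 827 CPM, while Gad2 was at 31.1, 33.3 and 24.1 CPM. In the layer cells with none of Gad1, Gad2, Dlx1, Dlx2, Dlx5, Dlx6os1 or Lhx6 above 0, an alternative added after seeing the data, Cacng3 had ratios of 0.49 in HET and 0.76 in HOM, the former just short of the threshold, and the shares of members lower were 26.9% in HET and 25% in HOM (10.7% and 16.5% of all genes).

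Further members higher in HOM layer neurons were Kcng1, a silent partner of Kv2 (16.9 CPM in WT, 18.2 CPM in HET and 29.0 CPM in HOM), and Cacng2 (36.0, 39.1 and 56.6 CPM). Kcnk2 averaged 57.0, 69.5 and 83.8 CPM, and Cacnb3 averaged 123, 116 and 174 CPM. Cacnb3 was above WT in all 4 layer types of HOM, most in LayerV-VI [12-P] with 108, 108 and 205 CPM. With cells limited to those holding a Y-linked transcript, 138 in the WT and 665 in the HOM layer neurons, the HOM ratios of Cacng2 and Cacnb3 were -0.46 and -0.12, so the direction of both was lost in that subset. Kcnj8 had the highest ratio, 1.60, but from 1.46 CPM and a summed value of 10 in WT to 6.45 CPM and 42 in HOM, levels far below its 1548 CPM in Endothelial2 [21-P]. The 6 pericyte and mural markers summed to 25.3 CPM in WT, 34.46 CPM in HET and 26.86 CPM in HOM layer neurons, and their part in the value was not tested. The other members past the threshold were Kcnu1 (0.62) and Kcna1 (0.51), at 6.56 and 12.9 CPM in HOM. In cells with at least 2000 molecules the ratio of Kcna1, a Kv1 gene of axons, was -0.26.

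In GABAergic neurons the members were nearer to the background. In HET 7 of 53 were lower (13.2%) and 2 higher (3.77%), against 7.98% and 4.22% of 9675 genes, with medians of -0.16 and -0.04. In HOM 10 of 55 were lower (18.2%) and 3 higher (5.45%), against 14.1% and 5.4% of 9899 genes, with medians of -0.17 and -0.11. With a pseudocount of 10 CPM the shares lower were 0% in HET and 7.27% in HOM (2.87% and 5.79% of all genes). Without Int2 [14-P], the type whose layer I markers led, the HET share was 8.16%, beside 8.01% of all genes.

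Kcnma1 had the lowest ratio of HOM GABAergic neurons. It encodes the pore of the BK channel, which couples calcium entry to repolarisation, and averaged 40.5 CPM in WT, 29.0 CPM in HET (-0.47) and 20.0 CPM in HOM (-0.99), below WT in 6 of 6 types of HOM. In the layer neurons it averaged 60.2, 42.7 and 37.9 CPM (-0.48 and -0.65), and in progenitors and glia 15.4, 10.8 and 10.2 CPM (-0.47 and -0.55). WT was thus the highest library in each of the pools. Its auxiliary subunit gene Kcnmb4 went the other way in HOM GABAergic neurons, with 26.3, 28.9 and 37.7 CPM and ratios of 0.13 and 0.50.

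Scn2a was the sodium channel gene past the threshold in GABAergic neurons, with 60.1 CPM in WT and 41.1 CPM in both HET and HOM (-0.54 and -0.54). In Int2 [14-P], its leading type within the pool, it was at 152, 78.8 and 76.7 CPM. The log2 ratios of HET and HOM were -0.94 and -0.97 there, but -0.22 and -0.50 in Int1 [5-P]. The pooled Scn2a values thus leaned on Int2 [14-P], the type whose layer I markers led. Scn3a averaged 117, 97.6 and 95.4 CPM. The Kv4.2 gene Kcnd2, a channel of the dendritic A-type current, averaged 39.9, 28.0 and 22.1 CPM, and its leading type within the pool was again Int2 [14-P] with 83.5, 28.8 and 31.6 CPM. Higher members in HET were Cacng3 and Kcnk1, the TWIK-1 gene, which averaged 11.0 CPM in WT, 19.7 CPM in HET (0.78) and 12.6 CPM in HOM (0.18). Kcnip2 (0.42) and Kcnq5 (0.38) came next without passing the threshold.

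The lowest GABAergic ratios in HET were those of calcium channel pores. Cacna1g averaged 14.9 CPM in WT, 7.75 CPM in HET (-0.86) and 11.8 CPM in HOM (-0.32), and Cacna1d averaged 22.0, 12.9 and 15.1 CPM (-0.73 and -0.52). The EAG family gene Kcnh8 was low in HET alone, with 10.9, 7.1 and 13 CPM. Over the class, all 7 measured pore genes were below WT in HET with a median of -0.49, and 6 of 7 in HOM with a median of -0.46. Cacna1c was at -0.55 in HOM, but at 0.10 in cells with a Y-linked transcript. In HOM GABAergic neurons the TARP gene Cacng8 was higher at 0.96, from 4.27 to 9.25 CPM, and the BK β subunit gene Kcnmb2 came next to the threshold at 0.38.

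Across both neuron pools, 4 of 49 members measured in both were lower in HET in both, namely Cacna1e, Cacna2d2, Cacna1g and Cacna1d, beside 2.47% of all genes. In HOM 7 of 50 were lower in both, among them Kcnd2, Cacna1c, Kcnq1ot1, Cacna2d2, Kcnma1 and Kcnq3, beside 6.02% of all genes. Kcnq3 was at -0.53 in HOM GABAergic neurons but at 0.59 in those cells with at least 2000 molecules. Cacna2d2 averaged 33.0, 22.2 and 21.8 CPM in the GABAergic types and 9.96, 5.72 and 5.6 CPM in the layer types. Much of its GABAergic difference lay in Int2 [14-P], the type whose layer I markers led, where its WT level was 86.6 CPM. Kcnq1ot1, the noncoding RNA that silences genes of its imprinted domain in cis, lies antisense within Kcnq1 on chromosome 7 and averaged 120, 90 and 81.4 CPM in layer neurons and 103, 91.8 and 64.2 CPM in GABAergic neurons of WT, HET and HOM. The use of strand in the counting was not given in the sources used here.

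Progenitors and glia had 9 of 49 members lower in HET (18.4%) and 2 higher (4.08%), against 8.79% and 4.18% of 10498 genes, and 10 of 52 lower in HOM (19.2%) and 3 higher (5.77%), against 20.7% and 4.77% of 10667 genes. The HOM share was therefore below that of all genes. No member was lower in HET when a summed value of 200 was required, which 17 members met, or with a pseudocount of 10 CPM, where 2.75% of all genes were lower, and the HOM share was then 7.69% (9.38%).

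Scn8a was among the members with the lowest ratios in this pool, averaging 37.7 CPM in WT, 34.6 CPM in HET and 18.1 CPM in HOM (-0.12 and -1.02), below WT in 5 of 5 types of HOM. Kcnh7 encodes ERG3, a channel related to hERG, and averaged 48.0, 33.9 and 24.2 CPM (-0.49 and -0.96). In SVZ1 (migrating) [2-P] it was at 72.3, 58.3 and 42.3 CPM and in Astrocytes (immature) 1 [10-P] at 85.2, 58.7 and 43.2 CPM. Both types showed the same order, WT above HET above HOM. In Astrocytes (immature) 2 [13-P] HET was the lowest instead, with 27.6, 12.4 and 15.6 CPM in WT, HET and HOM. Kcnj10 averaged 40.0 CPM in WT and 26.4 CPM in HOM (-0.58). The 10 astrocyte and radial glia markers summed to 13621 CPM in WT and 16002 CPM in HOM. Of these markers 7 were above WT in HOM and 1 was higher by the threshold, and the part of cell mix in the Kcnj10 value was not tested. The lowest ratios of the pool belonged to Kcnmb4os2, a noncoding transcript, with 9.77, 5.0 and 2.78 CPM (-0.84 and -1.51), and in HOM also to the β subunit gene Cacnb2, with 8.11 CPM in WT and 3.29 CPM in HOM (-1.09), and Kcnip1, with 25 and 12.3 CPM (-0.96). Kcnmb4os2 and Cacnb2 stayed below 10 CPM in every library. In HET Cacna2d3 (-0.78), Cacna1c (-0.75) and Cacna1e (-0.73) followed. The Kv1.2 gene Kcna2 was higher in HET with 10.8 and 17.9 CPM (0.68) but at -0.12 in cells with at least 2000 molecules. The higher members in HOM were Kcna3 with 4.53 and 11.3 CPM (1.16), Scn1a with 11.7 and 18 CPM (0.59) and Cacng2 with 13.5 and 20.2 CPM (0.55).

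Kcnq3 in SVZ1 (migrating) [2-P] was at 71.5, 48.6 and 28.5 CPM.

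**Figure D5:**
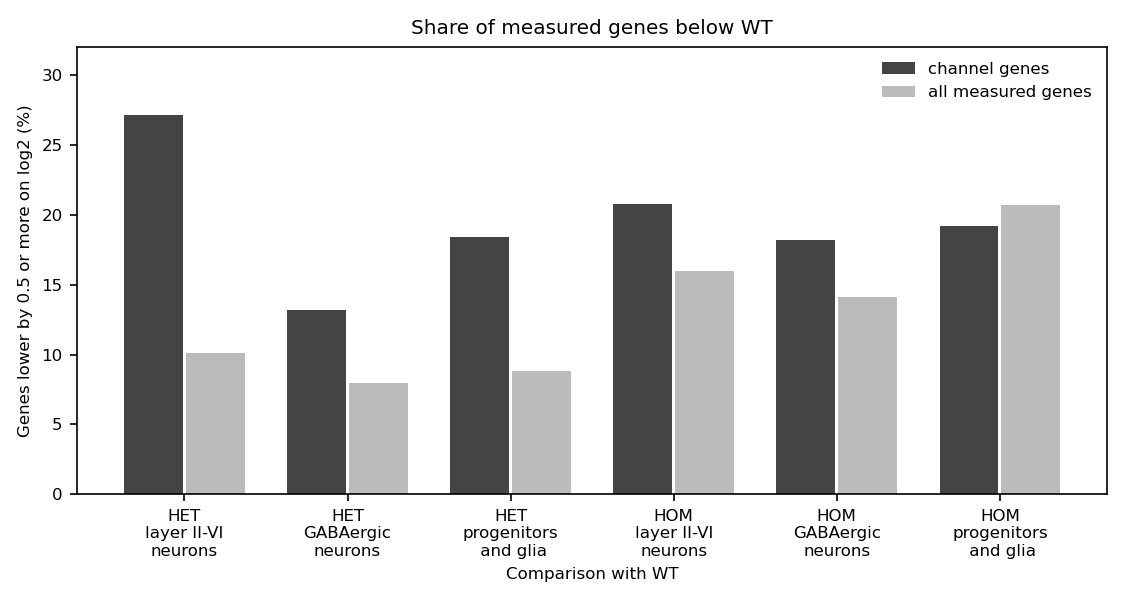
Share of measured genes lower than WT by 0.5 or more on the log2 scale, in percent, for the channel genes (dark bars) and all measured genes (light bars), in each pool and mutant. Bars start at 0 and carry no replicate error. The dark bar exceeds the light bar most in HET layer neurons (27.1% against 10.1%) and falls below it in HOM progenitors and glia (19.2% against 20.7%).

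Over the 6 comparisons there were 351 measured values of members, of which 220 were below the median of all genes and 191 below the median of genes in the same transcript length class. Of these values 89 were past a log2 ratio of 0.5, for which the shares of all genes are given above by comparison. Past a ratio of 1 there were 5 values, and the share of all genes at that threshold is not given here.

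Proteins that anchor or accompany channels, or move the same ions, were read from a list of 41 genes (among them ankyrins, neurofascin, FGF homologous factors, the HCN and NALCN channels and the sodium pump). In layer neurons 4 of 40 measured partners were lower in HET and 10 of 40 in HOM, with medians of -0.19 and -0.24, beside 10.1% and 16% of all genes lower, so that the HET count was at the background. In GABAergic neurons 5 of 37 and 10 of 38 were lower, with medians of -0.28 in both, beside 7.98% and 14.1% of all genes. Slc12a2 and Slc12a5, the chloride transporters NKCC1 and KCC2 whose balance sets the sign of GABA responses, averaged 25.9 and 26.7 CPM in WT GABAergic neurons, 14.5 and 15.4 CPM in HET and 13.5 and 14.4 CPM in HOM. The β-spectrin gene Sptbn4 of the axon initial segment averaged 25.3, 14.8 and 10.9 CPM in layer neurons. Higher partners included Cntnap2, which clusters Kv1 channels, with 43.4 CPM in WT and 67.1 CPM in HOM layer neurons.

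The remaining 28 members had summed values under 50 over all libraries and were not compared. They included Kcng3 and Cacna1f with a summed value of 1 each, the cardiac and epithelial genes Kcne1, Kcne2 and Kcnj15 with 6, 6 and 4, and Kcne4, the most abundant of them, with 45.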

How the data were processed

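Prefrontal cortex cells of 1 library per genotype were analysed. Per the labels and methods, the authors ran Cell Ranger 4.0.0 on mm10, joined the 4 runs of a library and filtered cells in Seurat 4.0. They named cell types by transfer from an atlas, and microglia and the removed blood cells from marker genes, and the names are used as deposited. The deposited gene values are a score, depth-corrected whole numbers. The correction method and the handling of doublets were not given in the sources used here. Molecules per cell are deposited as a count (499 to 17602) and the mitochondrial share as a percent. The authors' own comparisons of each mutant with WT were not used.

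Values were summed per cell type and library, scaled to CPM and compared as stated in the results, with Python 3.11.15, numpy 2.4.6, scipy 1.17.1 and pandas 2.3.3. The procedure was tested on simulated data. Since a library was not replicated, no p-value was computed. The intervals are exact binomial intervals at 95%, which cover counting error only.

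Membership followed the name rule alone, although that rule and the lists were set with earlier results of these data known. Named genes were up to 4 members per class with the highest WT level, the 4 highest and lowest ratios per comparison, members most tied to 1 cell type (up to 3 per type), and members past 0.5 in opposite directions in the layer and GABAergic pools, from which the text gives a selection. Results of some members are not reported here, although the counts over members include them. Alternatives were another pseudocount, minimum sum, scaling, weighting, fold or set of cells, and leaving out each cell type; the layer cells without interneuron transcripts were added after seeing the data.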

Additional observations from a re-analysis of the deposited data

How the results depend on the processing

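The share of channel genes lower than WT depended on low values and on the cells counted. With a pseudocount of 10 CPM it was 2.86%, 0% and 0% (2.93%, 2.87% and 2.75% of all genes) in HET layer neurons, GABAergic neurons, and progenitors and glia, and 8.33%, 7.27% and 7.69% (6.52%, 5.79% and 9.38%) in HOM. With a minimum summed value of 200 it was 10%, 5% and 0% in HET (7.02%, 4.24% and 4.8%). In cells with at least 2000 molecules it was 46.2%, 20% and 10% in HET (17.8%, 10.8% and 9.75%) and 40.4% in HOM layer neurons (24.2%). Counting cells that held a Y-linked transcript gave 30% of 20 members in HET GABAergic (15.2% of all genes), 40% of 15 in HOM layer (17.8%) and 29.2% of 24 in HOM GABAergic neurons (19.6%). As 1 sum over the pooled cells it was 7.55% in HET GABAergic neurons (8.05%). Leaving out each cell type gave 23.4% to 30.4%, 8.16% to 17.8% and 12.5% to 24.4% in HET, and 18.6% to 22.1%, 13.5% to 21.2% and 18.4% to 26.7% in HOM. At a threshold of 1, 5 of the 89 values remained past it, and the share of all genes there is not given.

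Of 964 values of single members under the alternatives, 730 kept their side of the threshold, 224 kept their sign but came nearer than 0.5, and 10 changed sign. In cells with at least 2000 molecules these were Kcna2 and Scn3b (-0.12 and 0.02, HET progenitors and glia), Kcna1 (-0.26, HOM layer), Kcnq3 (0.59, HOM GABAergic) and Cacna1c (0.17, HOM progenitors and glia). In cells with a Y-linked transcript they were Cacng2 and Cacnb3 (-0.46 and -0.12, HOM layer) and Cacna1c (0.10, HOM GABAergic). The others were Kcnab3 (HOM layer), at 0.06 without LayerV-VI [12-P] and at -0.86 without LayerII-IV [4-P], and Cacna2d3 as 1 sum (0.17, HOM progenitors and glia). The cause was not tested. No paired analysis was possible because the runs of a genotype are joined and the cells carry no run number.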
